A study of Mus musculus with 16 samples.

Results

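The 9 genes described here are receptors and feedback genes of fibroblast growth factor (FGF) signaling, *Fgfr1*, *Fgfr2*, *Fgfr3*, *Spry1*, *Spry2*, *Spry4*, *Dusp6*, *Etv4* and *Etv5*, chosen by name from the 30451 genes of a single-cell RNA sequencing table of dissociated whole mouse testes at postnatal day 2. The compared mice were wild type or carried a conditional *Ddx5* knockout, in which floxed *Ddx5* was removed by Cre recombinase under the *Mvh* promoter, so that the deletion was directed at germ cells and the somatic cells of both groups kept the gene. GFP and CRE transcripts were counted too, and the study describes an *Oct4*-GFP germ cell reporter. Cells were sorted into Sertoli, Leydig, myoid, stroma and germ cells by marker transcripts, as given below. Each genotype counts as 1 library, because the barcodes do not carry the numbers of the 8 libraries that the labels list for each genotype, so the genotypes were compared with no test.

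FGF ligands bind FGF receptors together with heparan sulfate on the cell surface, and the receptors switch on the RAS and ERK kinases through the adaptor FRS2. ERK signaling in turn induces Sprouty proteins (*Spry1*, *Spry2*, *Spry4*), which dampen the relay between receptor and RAS, the ERK phosphatase *Dusp6*, and the ETS transcription factors *Etv4* and *Etv5*. These feedback genes are also induced by other receptor tyrosine kinases, among them RET in male germ cells, where *Etv5* is known from the self-renewal of spermatogonial stem cells. In the testis, FGF signaling is known from the commitment of Sertoli cells in the fetal gonad, and Leydig, myoid and stroma cells form the interstitium and the tubule wall.

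After removal of cells with fewer than 2000 genes or over 10% mitochondrial transcripts, the wild-type library kept 6329 cells and the one labelled *Ddx5* knockout 4950, with medians of 11170 and 11668.5 transcript molecules (UMIs) per cell. The gates held 2174 and 1602 Sertoli cells (*Amh*, at least 3 UMIs), 166 and 129 Leydig cells (at least 20 UMIs of *Cyp11a1*, *Cyp17a1* and *Hsd3b1*), 723 and 501 myoid cells (*Acta2* at least 5, *Myh11* at least 2), 2859 and 2496 stroma cells (*Pdgfra* at least 1, *Amh* at most 2, in no other gate) and 83 and 12 germ cells (at least 3 of *Dazl*, *Ddx4*, *Mael* and *Stk31*). Markers that were not used in the gates followed them, and the 8 Sertoli markers summed to 8594 and 7508 CPM (UMIs per 1000000 UMIs of the cell type) in Sertoli cells against 211 and 199 in stroma and 1405 and 1282 in Leydig cells. Myoid cells and stroma were less separate: the 5 myoid markers summed to 2411 and 2196 CPM in myoid cells and 715 and 639 in stroma, and the 7 stroma markers to 8008 and 7916 CPM in stroma and 2410 and 2402 in myoid cells. In germ cells the 8 germ markers summed to 660 CPM for wild type and 244 under the knockout label, where *Nanos2* and *Nanos3* were at 0. *Ddx5* itself did not follow the label: it was at 1226 CPM in wild-type germ cells and 1736 in germ cells of the library labelled knockout, whose genotype is therefore given only as its label. CRE did follow the label, with at least 1 UMI in 9 of the 12 germ cells of the knockout label and in 0 of the 83 wild-type germ cells. Fewer germ cells were gated in the library labelled knockout (12 of 4950 cells against 83 of 6329). Before cells that also passed the Sertoli, Leydig or myoid gate were left out, the germ gate held 125 wild-type cells and 12 of the knockout label. Hemoglobin and *Alas2* transcripts in stroma summed to 74.5 CPM for wild type and 840 under the knockout label. The sums were 4.41 and 1638 CPM in Leydig cells, 89.4 and 1162 in myoid cells, 157 and 333 in Sertoli cells and 11.3 and 47.5 in germ cells. In all, 12 barcode sequences were shared by both libraries.

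Promoters are shown for *Spry1*, *Dusp6* and *Etv5*, because these 3 feedback genes were higher in myoid cells than in stroma. *Spry4* and *Etv4* were higher there too, and no window is shown for them or for *Fgfr1*. The sequences are those of RefSeq on GRCm38.p6, from 250 bases before the start site to 50 bases after it, 5′ to 3′ on the strand of the gene. Capitals mark matches to CGGAAG or AGGAAG, on either strand, which are short forms of the site that ETS factors such as ETV4 and ETV5 bind.
Spry1, chr3:37639697-37639996, plus strand: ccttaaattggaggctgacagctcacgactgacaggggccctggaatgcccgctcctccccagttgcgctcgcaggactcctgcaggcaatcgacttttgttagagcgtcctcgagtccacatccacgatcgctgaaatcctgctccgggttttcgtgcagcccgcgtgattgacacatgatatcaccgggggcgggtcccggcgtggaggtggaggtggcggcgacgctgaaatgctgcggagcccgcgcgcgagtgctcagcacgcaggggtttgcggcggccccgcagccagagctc
Dusp6, chr10:99262981-99263280, plus strand: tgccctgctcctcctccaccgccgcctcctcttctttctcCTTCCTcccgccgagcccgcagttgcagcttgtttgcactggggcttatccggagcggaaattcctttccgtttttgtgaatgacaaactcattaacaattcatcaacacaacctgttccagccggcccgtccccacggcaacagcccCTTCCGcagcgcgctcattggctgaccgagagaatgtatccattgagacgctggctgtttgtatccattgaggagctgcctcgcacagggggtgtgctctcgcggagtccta
Etv5, chr16:22439521-22439820, minus strand: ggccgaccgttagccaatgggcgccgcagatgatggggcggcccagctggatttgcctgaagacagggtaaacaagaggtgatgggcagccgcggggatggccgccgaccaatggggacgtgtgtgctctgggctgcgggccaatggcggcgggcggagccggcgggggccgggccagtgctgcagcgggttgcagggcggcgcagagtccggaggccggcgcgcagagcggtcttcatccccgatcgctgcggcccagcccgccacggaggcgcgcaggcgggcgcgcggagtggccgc
The *Dusp6* window held CGGAAG on the opposite strand, beginning 62 bases before the start site (offset -62), and AGGAAG on the opposite strand at offset -210. The *Spry1* window and the *Etv5* window printed here held neither. Of the other windows searched, AGGAAG was in the *Fgfr2* window (offsets -208 and 38) and in another *Etv5* window (offset 1). No match was found for *Spry2* or for either *Fgfr3* window. Among all 32851 promoter windows of the same length, 16.9% held CGGAAG and 35.4% held AGGAAG, so that these matches are common. The longer CCGGAAG, the cyclic AMP element TGACGTCA and the AP-1 site TGACTCA were held by 8.86%, 1.79% and 5.20% of all windows. They were searched first and were in none of the 8 windows searched for 6 of the 9 genes. This says only that these letters are not there. The 2 shorter forms were added after that search.

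*Fgfr1*, the receptor most used by mesenchymal cells, was a gene of stroma and myoid cells (chr8:25513654-25575718, plus strand). Its level was 149 CPM in stroma of wild type and 157 in stroma of the library labelled knockout, and 122 in myoid cells of both. It was at 32.5 and 28.1 CPM in germ cells, 19.9 and 19.7 in Leydig cells, and 11.5 and 16.0 in Sertoli cells. The 2 libraries gave the same order of cell types, and the levels in stroma and myoid cells lay clear of the rest. At least 1 *Fgfr1* UMI was found in 75.0% and 76.4% of stroma cells (medians of 9489 and 9600 UMIs per cell) against 9.89% and 13.9% of Sertoli cells, which were deeper (13485.5 and 15694.5).

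As a share of its stroma level, *Fgfr1* in Sertoli cells was within the range of stroma marker genes in the same cells. The 7 stroma markers were seen in Sertoli cells at a median of 6.73% of their stroma level in wild type (5.12% to 7.95%) and 10.0% in the library labelled knockout (6.91% to 13.5%). *Fgfr1* was at 7.75% and 10.2%, inside both ranges. Its Sertoli ratio between the libraries was 1.38 (95% interval 1.21 to 1.59, counting error only), and between 0.994 and 1.43 under 10 alternatives. With 1 library per label, this ratio cannot be told apart from a difference between libraries. With called doublets left out, *Fgfr1* in Sertoli cells was at 2.94 and 4.21 CPM and *Spry1* at 1.20 and 0.658. The parts of free RNA and of doublets in these levels were not tested. *Spry1* in Sertoli cells, at 5.57% and 6.09% of its stroma level, was likewise at or below the markers. In Leydig cells the same markers were at 2.71% to 7.44% in wild type and 2.85% to 5.80% in the library labelled knockout, and *Fgfr1*, at 13.3% and 12.6%, lay above both ranges. With at most 5% mitochondrial UMIs, *Fgfr1* in Leydig cells was at 55.0 CPM for wild type and 7.79 under the knockout label, so that its place above the markers is not a stable result.

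**Figure D1:**
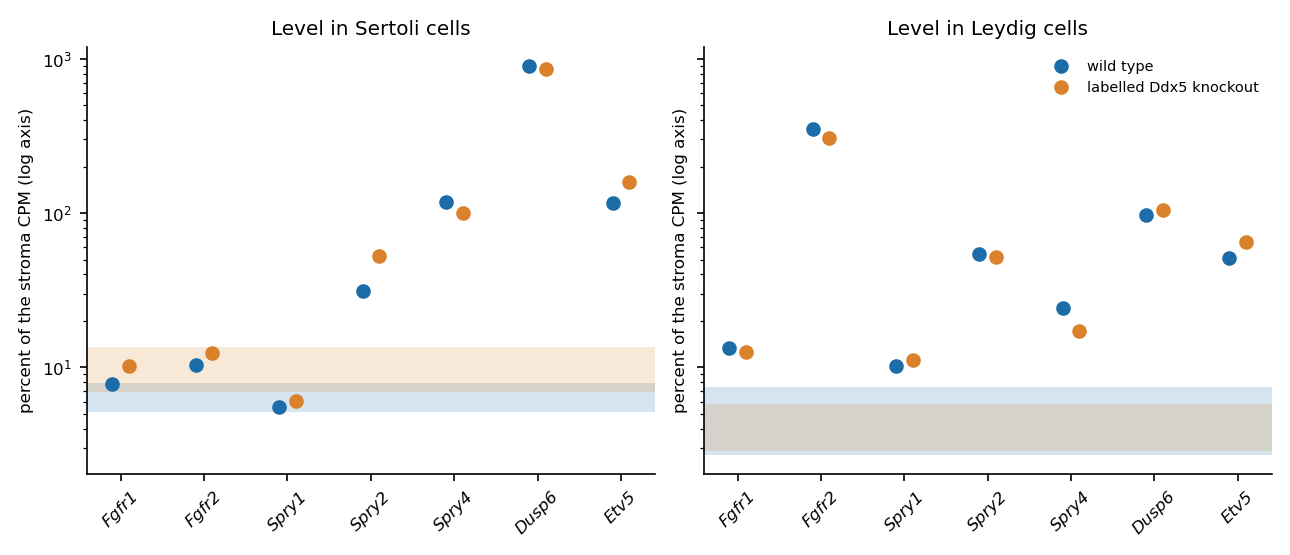
Level of 7 of the genes in Sertoli cells (left) and Leydig cells (right) as a percent of their own stroma CPM, on a log axis, in wild type (blue) and the library labelled *Ddx5* knockout (orange), with shaded bands for the range of the 7 stroma markers in the library of that color. *Fgfr1* and *Spry1* lie in or below the bands in Sertoli cells, while *Dusp6* lies far above them, and in Leydig cells all 7 genes lie above the bands.

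*Fgfr2*, whose splice forms serve epithelial and mesenchymal FGF ligands, was the receptor of Leydig cells. Its level was 52.2 CPM in wild-type Leydig cells and 51.5 in those of the library labelled knockout, against 15.0 and 16.9 in stroma, 12.5 and 12.8 in myoid cells and 1.56 and 2.11 in Sertoli cells. At least 1 UMI was found in 51.2% and 54.3% of Leydig cells and in 13.0% and 15.1% of stroma cells. In germ cells it was at 4.91 CPM (13 UMIs) for wild type and 2.16 (1 UMI) under the knockout label. *Fgfr2* levels carry an uncertainty of annotation: in GENCODE vM21 a transcript model stretches the gene over 2961 kb of chr7 (130162451 to 133123350, minus strand) across 36 other genes of the same strand, and the annotation release behind the deposited counts is not given in the sources used here.

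*Fgfr3* was close to absent from the somatic cells. It had 108 UMIs in all 10 sums of cell type and library, 38 and 40 of them in stroma (1.29 and 1.54 CPM). The highest level was 3.40 CPM in wild-type germ cells, from 9 UMIs in 8 of 83 cells (9.64% of cells, exact 95% interval 4.25% to 18.1%), and 0 UMIs were found in the 12 germ cells of the library labelled knockout, where a count of 0 allows 6.48 CPM (3 UMIs). *Fgfr3* was therefore not distinguishable between germ cells of the libraries at this depth.

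The mix of receptor transcripts set Leydig cells apart. Of the UMIs of *Fgfr1* to *Fgfr4*, *Fgfr2* made up 61.5% in wild-type Leydig cells (54.9% to 67.8%) and 64.0% in Leydig cells of the library labelled knockout (56.9% to 70.6%), against 8.87% and 9.47% in stroma and 9.15% and 9.37% in myoid cells. *Fgfr4* made up 14.7% and 11.5% in Leydig cells and at most 4.46% in any other gate. Capture differs between genes in 3′ counts, so that these shares are compared only between cell types.

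*Spry1*, the Sprouty gene with the widest span of levels, marked myoid cells. Its level was 208 CPM in wild-type myoid cells and 183 in those of the library labelled knockout, 64.9 and 50.4 in stroma, 6.62 and 5.64 in Leydig cells and 3.61 and 3.07 in Sertoli cells. At least 1 *Spry1* UMI was found in 87.0% and 84.2% of myoid cells. The gene lies on chr3 from 37639947 to 37644598 (plus strand).

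*Spry2*, which restrains the same relay, was spread more evenly. It was at 49.6 CPM in myoid cells and 47.3 in stroma of wild type, and at 32.6 and 28.7 in those of the library labelled knockout. Leydig cells had 25.7 and 14.9 CPM, Sertoli cells 14.7 and 15.1, and germ cells 7.56 and 10.8. The libraries did not overlap within their counting intervals in stroma and myoid cells, and they did in Sertoli cells.

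*Spry4* was low in most cells. Its level was 14.9 and 23.2 CPM in myoid cells, 5.37 and 4.68 in Sertoli cells, 4.56 and 4.68 in stroma, and 1.10 and 0.805 in Leydig cells, the last from 3 and 2 UMIs. In wild-type germ cells it was at 17.4 CPM, and 0 UMIs were found in those of the library labelled knockout.

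*Dusp6*, the phosphatase that removes the activating phosphates of ERK, was high in Sertoli cells. Its level was 80.8 CPM in wild-type Sertoli cells and 82.6 in those of the library labelled knockout, where 60.6% and 62.9% of cells had at least 1 UMI. Myoid cells had 24.8 and 33.9 CPM, Leydig cells 8.83 and 10.1, and stroma 9.06 and 9.64. The Sertoli level was not shared by *Spry1* or *Spry2*, which were lower in Sertoli cells than in stroma. In wild-type germ cells *Dusp6* was at 57.8 CPM, in 68.7% of cells. It was also high in macrophages, gated outside the other cell types by at least 3 of *Lyz2*, *Tyrobp*, *C1qa*, *C1qb* and *Csf1r*: 91.5 CPM in 28 wild-type cells and 95.6 CPM in 32 cells of the library labelled knockout, whose *Etv5* was at 24.9 and 31.1 CPM and whose *Fgfr1* was at 8.31 (3 UMIs) and 0.

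*Etv4* and *Etv5* code for closely related ETS factors, and their levels followed similar lines in the somatic cells. *Etv4* was at 8.02 and 6.62 CPM in myoid cells, 1.32 and 1.18 in Sertoli cells and 1.19 and 1.07 in stroma, and 0 UMIs were found in Leydig cells of either library, which allows 1.10 and 1.21 CPM. *Etv5* was at 25.6 and 25.9 CPM in myoid cells, 10.1 and 12.7 in Sertoli cells, 8.65 and 8.02 in stroma and 4.41 and 5.23 in Leydig cells. Both genes were highest in wild-type germ cells, at 184 CPM for *Etv4* and 96.4 for *Etv5*.

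**Figure D2:**
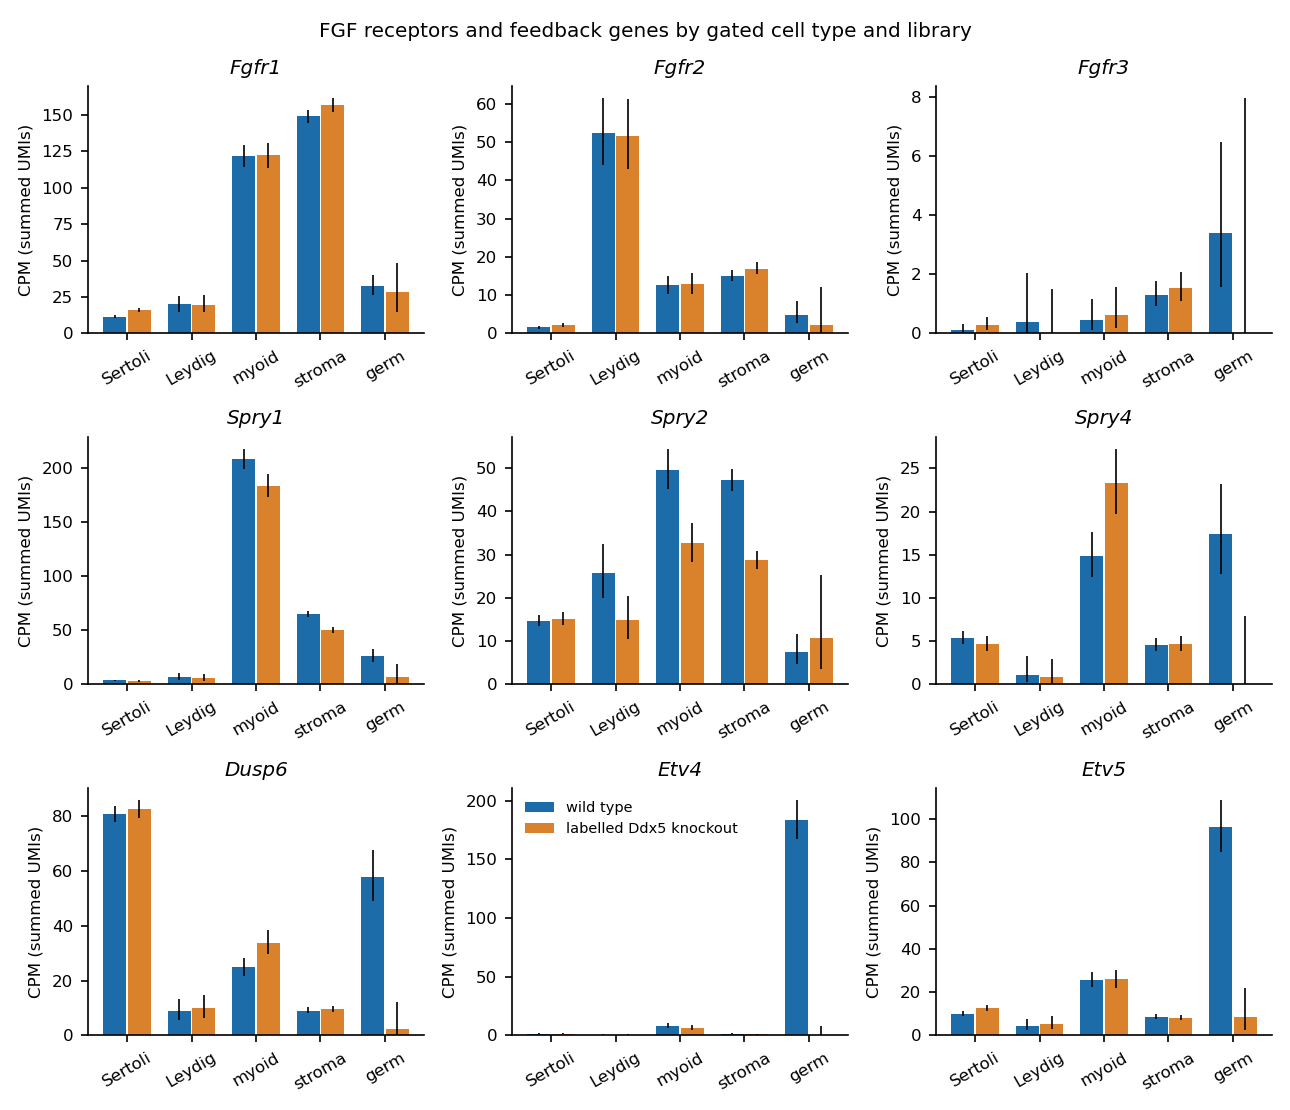
CPM of the 9 genes in the 5 main gates (macrophages are not drawn), from UMIs summed over the cells, in wild type (blue) and the library labelled *Ddx5* knockout (orange), with exact 95% Poisson intervals that cover counting error only. Of these gates, *Fgfr1* is highest in stroma, *Fgfr2* in Leydig cells, *Spry1* in myoid cells, *Dusp6* in Sertoli cells and *Etv4* and *Etv5* in wild-type germ cells.

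Differences between cell types were tested with edgeR's quasi-likelihood test on the sums of each library and cell type, with the library as a block and Benjamini-Hochberg adjustment over all genes of a contrast (adjusted p under 0.05). The 2 libraries are the only replicates and nothing says how many animals they hold. With the library as a block, the p-values measure how far differences between cell types vary between these 2 libraries. The libraries also differ in genotype label, and the p-values do not measure the spread between animals. Cell types differed in most genes, so counts of called genes have a high background: 55.0% of all 16799 genes tested were called between Sertoli and Leydig cells, 68.0% between Sertoli and myoid cells, 75.4% between Sertoli cells and stroma, 58.5% between Leydig and myoid cells, 59.1% between Leydig cells and stroma, and 29.3% between myoid cells and stroma. Over the 6 somatic contrasts, 44 of 54 gene and contrast pairs of the 9 genes were called.

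Between myoid cells and stroma, the pair with the fewest called genes, 5 of the 6 feedback genes were higher in myoid cells and 1 of the 3 receptors was lower. *Spry1* was 3.48-fold higher in myoid cells (log2 1.80, SE 0.065, adjusted p = 1.3e-10), *Spry4* 4.12-fold (2.04, SE 0.185, 1.1e-06), *Dusp6* 3.16-fold (1.66, SE 0.115, 7.0e-08), *Etv5* 3.15-fold (1.66, SE 0.131, 2.7e-07) and *Etv4* 6.57-fold (2.72, SE 0.257, 3.0e-06). *Fgfr1* fell by 0.29 on the log2 scale in myoid cells (SE 0.082, adjusted p = 0.015). *Fgfr2* (log2 -0.30, adjusted p = 0.11), *Fgfr3* (-1.38, 0.070) and *Spry2* (0.16, 0.45) did not pass. In all, 6 of the 9 genes were called in this contrast, against 29.3% of all genes. The *Fgfr1* call was lost with doubled gates (adjusted p = 0.19), with DESeq2 (0.17), without the library block (0.079) and when all 5 cell types were fitted (0.41). The *Etv4* call was lost with the gates as written, where a cell could be in several (adjusted p = 0.087), and with all 5 cell types (0.091).

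Between Sertoli cells and stroma, *Dusp6* was 8.86-fold higher in Sertoli cells (log2 3.15, SE 0.093, adjusted p = 3.4e-13). *Etv5* was 1.37-fold higher (0.46, SE 0.120, 0.0032), a call that was lost with doubled gates (0.11), with the gates as written (0.66) and with all 5 cell types (0.29). *Fgfr1*, *Fgfr2*, *Fgfr3*, *Spry1* and *Spry2* were lower in Sertoli cells, by 2.47-fold for *Spry2* (adjusted p = 5.2e-07) and 17.0-fold for *Spry1* (1.9e-14). With called doublets left out, the log2 difference went from -4.09 to -5.91 for *Spry1* and from -3.47 to -5.47 for *Fgfr1*. *Etv4* (log2 0.16, adjusted p = 0.61) and *Spry4* (0.15, 0.47) did not pass. Thus 7 of 9 genes were called where 75.4% of all genes were, which is near the background.

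Leydig cells were higher than stroma in *Fgfr2* alone among the 9 genes, by 3.31-fold (log2 1.73, SE 0.126, adjusted p = 1.9e-08), and higher than myoid cells by 4.07-fold (2.03, SE 0.146, 1.8e-08). *Fgfr1* was 7.59-fold lower than in stroma (adjusted p = 1.3e-10) and *Spry1* 9.23-fold lower (2.0e-10). *Dusp6* did not differ past the threshold between Leydig cells and stroma (log2 0.04, SE 0.217, adjusted p = 0.90). Against Sertoli cells, *Fgfr2* was 28.7-fold higher in Leydig cells (adjusted p = 3.4e-12) and *Dusp6* 8.64-fold lower (4.6e-10), and *Spry2* did not pass (0.13).

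Within myoid and stroma cells pooled, *Spry1*, *Spry4*, *Dusp6* and *Etv5* were higher in cells with more *Acta2*, the smooth muscle actin of the myoid gate, in steps chosen after the levels were seen. The gate used *Acta2* itself, so that all cells with fewer than 5 UMIs are stroma and the steps partly restate the contrast of myoid cells and stroma. *Spry1* was at 32.9 CPM in the 1320 wild-type cells with 0 *Acta2* UMIs, 51.9 in those with 1 to 4, 110 with 5 to 19 and 202 with 20 or more. In the library labelled knockout these levels were 16.2, 29.6, 109 and 179 CPM. *Dusp6* went from 4.22 to 24.7 CPM between the lowest and the highest step in wild type and from 3.44 to 34.6 in the library labelled knockout. *Etv5* went from 4.38 to 25.7 and from 3.08 to 27.0 CPM. *Spry4* went from 2.03 to 14.6 and from 0.634 to 20.5 CPM. *Fgfr1* went the other way, from 157 to 126 and from 172 to 127 CPM, and *Spry2* was at 48.4 and 47.9 CPM in the lowest and the highest step of wild type and at 25.5 and 33.6 in those of the library labelled knockout. Median depth also differed along the steps, from 8827.5 to 10941 UMIs per cell in wild type, and its part was not tested.

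**Figure D3:**
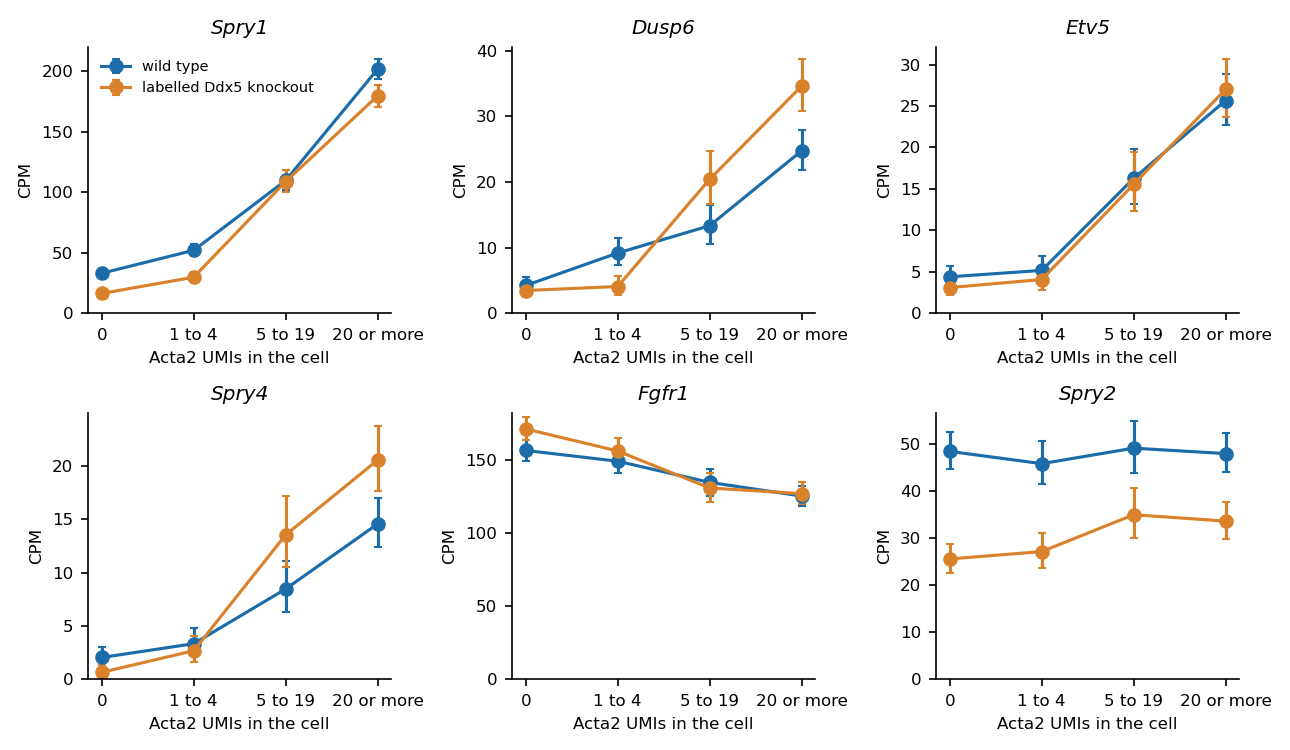
CPM of 6 genes in myoid and stroma cells together, by the number of *Acta2* UMIs in the cell, in wild type (blue) and the library labelled *Ddx5* knockout (orange), with exact 95% Poisson intervals. *Spry1*, *Dusp6*, *Etv5* and *Spry4* are highest in cells with 20 or more *Acta2* UMIs in both libraries, while *Fgfr1* is highest in cells with none.

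Cells called cycling differed from cells with no *Mki67* or *Top2a* UMI in many genes, the ETS factors among them. Cells with at least 3 UMIs of *Mki67* and *Top2a* together were set against cells with 0, with no test, since cells are not replicates. The sets are named cycling and non-cycling here, although 0 UMIs of these genes do not show that a cell is out of cycle. Of all genes with at least 50 UMIs, between 18.3% and 25.4% were higher in cycling cells with an interval clear of 1, and between 15.2% and 24.1% lower, over the 6 sums of Sertoli, stroma and myoid cells. *Etv4* was 3.00-fold higher in cycling stroma cells of wild type (1.35 to 6.79) and 5.13-fold in the library labelled knockout (2.04 to 14.0), and 2.36-fold (1.39 to 4.09) and 4.33-fold (2.10 to 9.61) in myoid cells. The stroma ratios rest on 16 and 13 *Etv4* UMIs in wild type and 15 and 8 in the library labelled knockout, in cycling and non-cycling cells, and the myoid ratio of the library labelled knockout on 29 and 11, each fewer than the 50 behind the shares of all genes. *Etv5* was 1.79-fold and 1.42-fold higher in cycling stroma cells and 1.41-fold and 1.87-fold higher in cycling Sertoli cells, with all 4 intervals above 1. In myoid cells the *Etv5* ratios were 1.28, with an interval that held 1 (0.962 to 1.70), and 1.67 (1.20 to 2.31). *Etv4* in Sertoli cells was at a ratio of 3.87 in wild type (1.60 to 11.3) and 1.29 in the library labelled knockout, where the interval held 1 (0.557 to 3.24), also from fewer than 50 UMIs.

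*Dusp6* in Sertoli cells followed the same line, at 95.6 CPM in cycling and 65.6 in non-cycling cells of wild type, and at 103 and 57.7 in the library labelled knockout. The ratios were 1.46 (1.34 to 1.59) and 1.78 (1.61 to 1.97). In stroma the *Dusp6* ratios were 1.21 (0.910 to 1.60) and 1.69 (1.28 to 2.23), and in myoid cells 1.13 (0.847 to 1.51) and 1.31 (0.978 to 1.74). *Fgfr1* in stroma was at 134 and 154 CPM in wild type, a ratio of 0.869 (0.809 to 0.934), and its interval held 1 in the library labelled knockout (0.961, 0.892 to 1.03). *Spry2* in stroma, with ratios of 1.05 and 1.03, had both intervals across 1. In Sertoli cells *Spry2* was at 1.09 in wild type (0.893 to 1.33) and 1.29 in the library labelled knockout (1.03 to 1.62). *Spry1* was lower in cycling myoid cells of wild type (0.840, 0.759 to 0.930), and *Fgfr1* was lower in cycling Sertoli cells of wild type (0.755, 0.599 to 0.951) but not of the library labelled knockout (1.21, 0.975 to 1.52). *Spry4* was higher in cycling Sertoli cells of the library labelled knockout (2.34, 1.47 to 3.88) and at 1.01 in those of wild type. Cycling cells were deeper, with medians of 18161 against 11722.5 UMIs in wild-type Sertoli cells, and the part of depth was not tested.

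**Figure D4:**
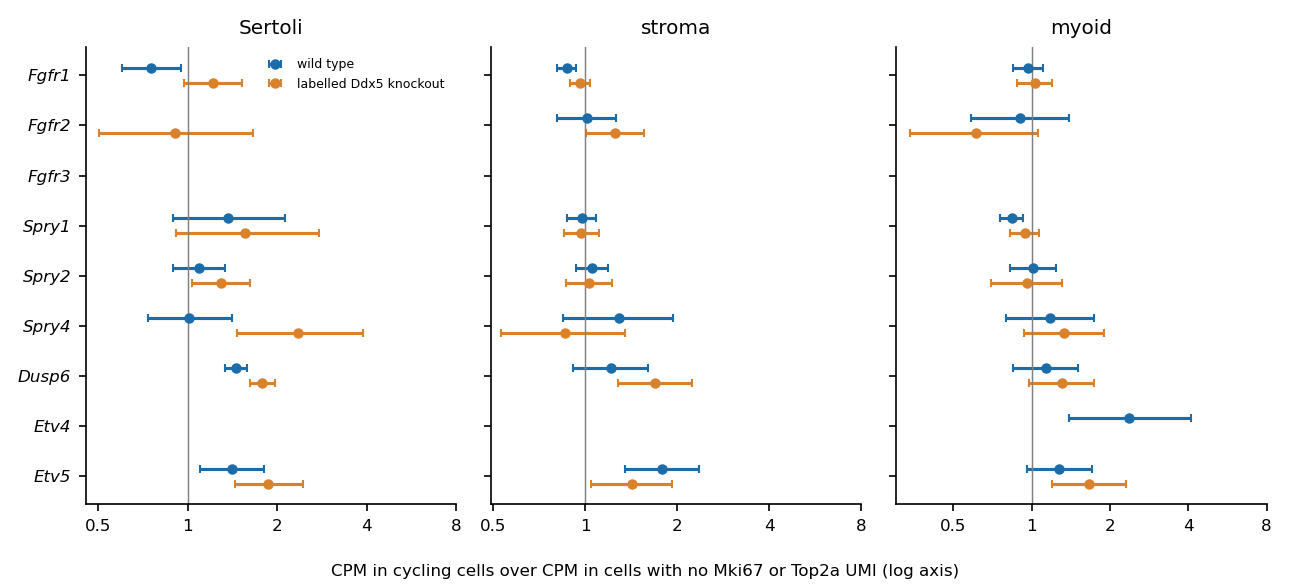
CPM in cycling cells over CPM in cells with no *Mki67* or *Top2a* UMI, on a log axis, for genes with at least 50 UMIs in a cell type and library, with exact 95% conditional binomial intervals, in wild type (blue) and the library labelled *Ddx5* knockout (orange). *Dusp6* and *Etv5* lie above 1 in Sertoli cells of both libraries, and the *Spry1* and *Spry2* intervals hold 1 in stroma.

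Between the libraries, *Spry2* was the gene that differed most widely in the somatic cells. Its CPM in the library labelled knockout was 0.608 of wild type in stroma (0.555 to 0.665), 0.658 in myoid cells (0.556 to 0.777) and 0.579 in Leydig cells (0.378 to 0.874), and 1.03 in Sertoli cells (0.899 to 1.17). A change past 1.5-fold downward was seen in 2.03% of all genes with at least 50 UMIs in stroma, 2.31% in myoid cells, 3.03% in Leydig cells and 2.31% in Sertoli cells. Upward changes of that size were seen in 2.46% of genes in stroma, 2.59% in Leydig cells and 3.38% in Sertoli cells, and none of the 9 genes was among them there. The stroma ratio lay between 0.597 and 0.628 under 10 alternatives, the Leydig ratio between 0.366 and 0.686, the myoid ratio between 0.652 and 0.758 and the Sertoli ratio between 0.901 and 1.03, so that the Leydig and myoid ratios did not stay past 1.5-fold under all of them.

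Early response genes moved beside *Spry2*. In stroma, *Fos* went from 103 to 41.7 CPM (ratio 0.403), *Jun* from 562 to 292 (0.519) and *Egr1* from 412 to 283 (0.688). In myoid cells the ratios were 0.451 for *Fos*, 0.650 for *Jun* and 0.799 for *Egr1*, and in Leydig cells 0.749, 0.880 and 0.635. In Sertoli cells, where the *Spry2* interval held 1, *Fos* was at 0.529, *Jun* at 0.852 and *Egr1* at 0.785. These genes respond to tissue dissociation as well as to growth factors, and their part in the *Spry2* difference was not tested. Hemoglobin and *Alas2* transcripts were higher under the knockout label in each of these cell types, and their part was not tested either.

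*Spry4* was the other way round in myoid cells, at 1.56 of wild type (1.23 to 1.98), where 1.84% of genes were past 1.5-fold upward, and its ratio lay between 1.43 and 1.77 under 10 alternatives, not past 1.5-fold in all of them. *Dusp6* in myoid cells, at 1.36 (1.13 to 1.65), and *Spry1* in stroma, at 0.778 (0.724 to 0.835), differed by more than counting error but by less than 1.5-fold. *Fgfr1* and *Fgfr2* were within 1.5-fold of wild type in Sertoli, Leydig, myoid and stroma cells, except for *Fgfr1* in Leydig cells with at most 5% mitochondrial UMIs (0.142). With 1 library per label, such ratios cannot be told apart from a difference between libraries.

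**Figure D5:**
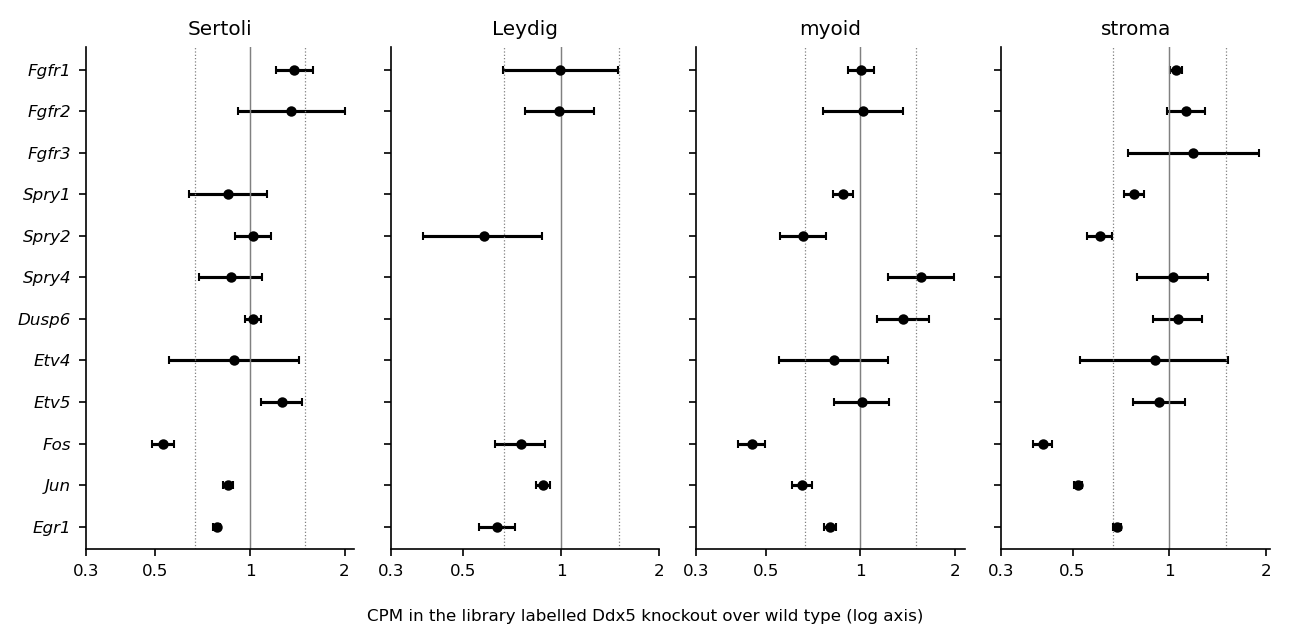
Ratio of CPM, library labelled *Ddx5* knockout to wild type, on a log axis, in 4 somatic cell types, for genes whose UMIs summed to 50 or more, with exact 95% conditional binomial intervals, and *Fos*, *Jun* and *Egr1* below the 9 genes. Dotted lines mark 1.5-fold. *Spry2* lies at 0.579 to 0.658 in Leydig, myoid and stroma cells and at 1.03 in Sertoli cells.

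Germ cells of wild type had the highest *Etv4* and *Etv5* levels of any gate, and those of the library labelled knockout had 0 and 4 UMIs of these genes. *Etv4* was found in 73 of 83 wild-type germ cells, with a median of 5 UMIs and up to 17, and in 0 of 12 cells of the library labelled knockout, where 0 UMIs allow 6.48 CPM against 184 in wild type and the exact 95% interval allows a ratio of up to 0.044. *Etv5* was found in 68 of 83 cells and 4 of 12, *Dusp6* in 57 and 1, *Spry1* in 41 and 3, and *Spry4* in 31 and 0. At least 3 of these 5 genes were found in the same cell in 62 of 83 wild-type cells and in 0 of 12. This count has no share over all genes beside it, and cells are not replicates. *Spry2*, the feedback gene outside this set, was found in 17 of 83 and 4 of 12 cells. Between pairs of the 5 genes, Spearman's rho over the 83 wild-type cells was low, from 0.038 to 0.21. *Fgfr1* was found in 45 of 83 and in 7 of 12 cells, at 32.5 and 28.1 CPM (ratio 0.863, 0.442 to 1.56), and the ratio was 1.89 after thinning to 4000 UMIs per cell.

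The ratios of library labelled knockout to wild type were 0.248 for *Spry1* (0.050 to 0.757), 0.037 for *Dusp6* (0.001 to 0.211) and 0.090 for *Etv5* (0.024 to 0.232). *Spry4* was at 46 UMIs against 0, with an interval that allows a ratio of up to 0.477. Of all 7570 genes with at least 50 UMIs in germ cells, 56.9% were lower by 1.5-fold or more and 11.9% higher, so that being lower was the rule, with a median log2 ratio of -0.81 over all genes. Median depth was 34528 UMIs in the 12 cells and 32158 in the wild-type cells.

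Germ cells were compared with somatic cells in the same way, with both libraries, and 30 of 36 gene and contrast pairs were called, where between 52.6% and 57.0% of all genes were. *Etv4* was 12.1-fold higher than in myoid cells (log2 3.60, SE 0.677, adjusted p = 0.0028) and *Etv5* 2.31-fold (1.21, SE 0.418, 0.035). These calls rest on wild type: in the library labelled knockout alone *Etv4* was lower in germ cells than in myoid cells (log2 -0.73 with a pseudocount of 10 CPM) and so was *Etv5* (-0.94). With DESeq2 neither *Etv4* (adjusted p = 0.11) nor *Etv5* (0.38) was called against myoid cells. *Fgfr1* was 5.49-fold lower in germ cells than in stroma (adjusted p = 2.9e-05).

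Other genes of the pathway were read from lists. Of 22 FGF ligands, 10 had at least 50 UMIs. *Fgf13*, a member of the family that is not secreted, was highest in Sertoli cells (41.2 and 39.7 CPM), as was the secreted *Fgf18* (22.4 and 25.5). *Fgf7*, a mesenchymal ligand, was highest in stroma (27.9 and 25.1), and *Fgf2* was at 25.6 and 26.2 in myoid cells and 23.5 and 24.5 in stroma. Between Sertoli cells and stroma, 4 of 11 tested ligands were higher in Sertoli cells and 5 lower, where 75.4% of all genes were called.

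Among other receptors and co-receptors, *Fgfrl1*, a receptor without a kinase domain, was at 128 and 137 CPM in Leydig cells and 31.2 and 31.1 in stroma. *Flrt1*, an adhesion protein that binds FGF receptors, was at 58.1 and 62.5 CPM in Sertoli cells. Between myoid cells and stroma, 0 of 6 tested genes of this list were higher and 4 lower, and of 10 other feedback genes 7 were higher in myoid cells and 0 lower, where 29.3% of all genes were called. These 7 held the ETS factor *Etv1* (log2 2.19, 185 and 220 CPM in myoid cells) and the Sprouty-related *Spred1* (0.72) and *Spred2* (0.89), which also restrain RAS. The relay list had 3 of 16 genes higher and 3 lower in myoid cells, with *Map2k1*, the kinase MEK1, among the higher (log2 0.60).

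Of 16 tested heparan sulfate genes, 5 were higher and 10 lower in Sertoli cells than in stroma, against 75.4% of all genes called. The syndecan *Sdc4* was at 390 and 401 CPM in Sertoli cells and 15.5 and 16.5 in stroma (log2 4.65). *Gpc3* (471 and 530 CPM in stroma) and the sulfatase gene *Sulf2* (415 and 462) were lower in Sertoli cells by 3.92 and 3.49 on the log2 scale, at levels of 26.4 and 39.8 CPM for *Gpc3*.

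The genes whose pattern over the 10 sums was most like each member were found by Pearson correlation of log2(CPM + 10), over 11684 genes with at least 500 UMIs, as a description. *Cxcl16* (r = 0.993) came first for *Fgfr1*, *Rftn2* (0.992) for *Fgfr2*, *5033406O09Rik* (0.992) for *Spry1*, *Shb* (0.996) for *Etv4* and *Asap2* (0.989) for *Etv5*. The 10 sums share their libraries and 5 cell types, so that a high r is common.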

How the data were processed

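Single testicular cells were captured with the Chromium 3′ v3 kit, and the deposited table holds UMI counts per gene and barcode that the authors made with Cell Ranger 3.1.0 on GRCm38 (per the submitters' processing notes), with GFP and CRE added, before any filter or normalization. The annotation release is not given in the sources used here. Barcodes carry 2 suffixes, of which 3 was taken as wild type and 4 as the *Ddx5* knockout label, since the study states more wild-type cells after its filter than the 5423 barcodes that suffix 4 has before any filter, against 6763 of suffix 3. The labels place libraries of both genotypes in partly different sequencing lanes, which the barcodes do not separate. The genes, gates and lists were chosen with earlier results of these data known. The table holds 84263163 wild-type UMIs and 67558106 of the knockout label.

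The filter kept cells with 2000 genes or more and no more than 10% mitochondrial UMIs, and 88 and 35 cells that passed 2 or more of the Sertoli, Leydig, myoid and germ gates were left out. Doublets called with Scrublet in scanpy 1.11.5 (4.49% and 5.98% of cells) were kept, and leaving them out was an alternative. UMIs were summed per library and cell type and scaled to CPM, with exact Poisson intervals for levels, Clopper-Pearson intervals for shares and conditional binomial intervals for ratios, at 95% and for counting error only. Shares of cells were also computed after thinning to 4000 UMIs. Contrasts used edgeR 4.0.16 in R 4.3.3 (TMM scaling, filterByExpr, quasi-likelihood test) with 11 gate genes left out of calls, and DESeq2 1.42.0 as an alternative; scripts were tested on simulated data. All 9 genes passed the filter. Between libraries, past 1.5-fold means a ratio of at least 1.5 or its inverse among genes with at least 50 UMIs in that cell type. The rule for named genes took the 9 genes in every gate, up to 3 leading ligands, and the other receptors and feedback genes with at least 50 UMIs. Further ligands, *Fos*, *Jun* and the relay and heparan sulfate genes were named after their values were seen. Promoters come from RefSeq on GRCm38.p6 and gene positions from GENCODE vM21.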

Additional observations from a re-analysis of the deposited data

Results flagged for a closer look

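*Dusp6* and *Etv5* were flagged because the library labelled *Ddx5* knockout lay below wild type in one cell type and above it in another, with both counting intervals clear of 1, among genes with at least 50 UMIs in the cell type. The difference between the cell types was not tested, since each genotype has 1 library. The ratio of the library labelled knockout to wild type was 0.037 for *Dusp6* in germ cells and 1.36 in myoid cells. It was 0.090 for *Etv5* in germ cells and 1.26 in Sertoli cells, where it was 1.02 with the gates as written. In germ cells 56.9% of all genes were lower by 1.5-fold or more, and the germ values of the library labelled knockout come from 12 cells.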

How the results depend on the processing

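The counts held within 1.5 times under every alternative run: 32 to 46 called pairs against 44 between somatic cell types, 22 to 30 against 30 between germ and somatic cells, and 6 to 9 pairs past 1.5-fold between libraries against 8. The lowest of these came from fitting the somatic contrasts with all 5 cell types (32), from DESeq2 (22) and from the mean of CPM per cell (6). Of 806 tested contrast values of single genes under an alternative, 46 lost the call, 10 gained it, and 750 stayed on the same side of the threshold with the same direction. Without a test, 150 of 900 levels and 16 of 330 library ratios moved past their counting interval. Of these, 51 came from leaving mitochondrial and ribosomal protein genes out of the total, which scales all genes of a sum alike, and 35 from thinning. Sertoli levels of stroma genes fell when called doublets were left out, for *Fgfr1* from 11.5 to 2.94 CPM in wild type and from 16.0 to 4.21 in the library labelled *Ddx5* knockout, and for *Spry1* from 3.61 to 1.20 and from 3.07 to 0.658. With at most 5% mitochondrial UMIs, *Fgfr1* in Leydig cells went from 19.9 to 55.0 and from 19.7 to 7.79 CPM. With gates as written, wild-type *Etv4* went from 1.32 to 5.33 CPM in Sertoli cells and from 1.19 to 4.69 in stroma. After thinning to 4000 UMIs, the *Fgfr1* library ratio in germ cells went from 0.863 to 1.89.

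With each library alone, which leaves no residual degrees of freedom and no test, 10 called germ cell contrasts changed direction in the library labelled *Ddx5* knockout. As log2 differences with a pseudocount of 10 CPM, in the library labelled knockout and in wild type, they were -0.041 and 0.41 for *Fgfr3*, -0.16 and 4.10 for *Etv4* and -0.29 and 2.41 for *Etv5* over Sertoli cells. Over Leydig cells they were -0.72 and 1.85 for *Dusp6* and -0.11 and 1.30 for *Spry4*. Over myoid cells they were -0.73 and 3.43 for *Etv4* and -0.94 and 1.58 for *Etv5*, and over stroma -0.69 and 1.83 for *Dusp6*, -0.15 and 4.11 for *Etv4* and -0.55 and 0.91 for *Spry4*. The cause was not tested. Germ cells chosen by GFP or CRE, an alternative chosen after seeing the data, gave 29 called pairs. The cell type contrasts had the library as a block, and without it 3 single calls changed. No paired analysis was possible between the genotypes because the barcodes carry no library number. Depth limits *Fgfr3* in every gate and all germ values of the library labelled knockout, where 3 UMIs make 6.48 CPM.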

Other observations

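Of the 22 FGF ligand genes, 4 had a higher CPM in the 12 germ cells that carried the *Ddx5* knockout label, with an interval of the ratio above 1, and 0 had one below 1. All 4 had fewer than 50 UMIs in germ cells, and by the same rule 10.9% of all 15326 genes with 1 UMI or more and fewer than 50 were higher and 2.43% lower. *Fgf8* had 20 UMIs in these cells (43.2 CPM) and 27 UMIs in the 83 wild-type germ cells (10.2 CPM), a ratio of 4.23 (2.25 to 7.83). *Fgf5* had 7 UMIs against 5 (15.1 and 1.89 CPM), and *Fgf21*, a ligand that acts as a hormone, had 8 against 2, a ratio of 22.8 (4.56 to 221). *Fgf15* had 4 UMIs against 0. *Fgf18* had 1 UMI against 34, a ratio of 0.168 whose interval held 1. These counts are small, the genes were named after their values were seen, and the intervals cover counting error only.

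Of the 7 other feedback genes with at least 50 UMIs in germ cells, 5 were lower by 1.5-fold or more in the same cells, where 56.9% of all genes were. *Spred2* was at 39.3 CPM in wild type and at 4.32 under the knockout label (ratio 0.110, 0.013 to 0.407), *Dusp5* at 75.2 and 25.9 (0.344, 0.175 to 0.615) and *Egr1* at 194 and 25.9 (0.133, 0.068 to 0.235). *Dusp14* was at 28.3 and 32.4 CPM, a ratio of 1.14 whose interval held 1 (0.609 to 2.01). *Etv1* had 5 UMIs against 7, at 10.8 and 2.65 CPM, a ratio of 4.08 (1.02 to 14.9).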
